A study of Drosophila melanogaster with 12 samples.

Results

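Sesn, Thor, Tor, S6k, Tsc1, gig, path, JhI-21, slif and mnd are 10 Drosophila genes of nutrient sensing through the TORC1 kinase complex and of amino acid uptake. They were taken by symbol from 3 deposited tables of 14542, 14540 and 14540 gene rows, and each of the 10 had a row of its own in every table. The genes were selected on their role in this pathway and on their FPKM values and calls in these same tables, so what follows describes those values and is not an independent test of them. RNA was sequenced from S2 cells, a wild type line of embryonic origin with features of macrophage-like blood cells, grown in Schneider's medium with glutamine and fetal bovine serum. All 4 groups had taken up double-stranded RNA (dsRNA) for 4 days, against GFP as the control, against Sin3A, against Sam-S, or against both genes together. Each group had 3 samples, which the authors combined into 1 value per gene, so that no value has a spread between samples. Groups are called here the GFP control, the SIN3-labelled samples, the SAM-S knockdown and the double-labelled samples.

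TORC1 is a kinase complex built around the Tor protein that drives translation and growth and restrains autophagy when nutrients are plentiful. Amino acids brought in by plasma membrane and lysosomal transporters activate it through the Rag GTPases at the lysosome, and insulin signalling activates it through the GTPase Rheb, which the Tsc1 and gig proteins hold inactive. Sestrins, known in mammals as sensors of leucine, restrain TORC1 by binding GATOR2, a complex of the Rag branch, while Thor and S6k are substrates of Tor that control translation. Sam-S makes S-adenosylmethionine, the methyl donor that SAMTOR in human cells and unmet in the fly report to the same branch, and Sin3A encodes a scaffold on which a histone deacetylase complex assembles.

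Values are FPKM, a measure of RNA level per unit of transcript length and of library size, so levels of different genes can be set side by side. A gene was called, and is said to have risen or fallen, where its q-value in the authors' deposited table was under 0.05. The deposited statistic gives each log2 fold change an implied standard error (SE), and 1.96 times that SE gives an approximate 95% interval. This interval is wide: the deposited p-values correspond to an SE smaller by a median factor of 1.73 to 1.74. Because samples were combined, it cannot be told whether either measure contains the spread between cultures. The 3 comparisons share the GFP samples, and differences between the treated groups were not tested. Sam-S mRNA was at 25.7% of control after SAM-S knockdown and at 37.5% in the double-labelled samples, but rose to 202% of control in the SIN3-labelled samples (log2 fold change 1.01). Sin3A mRNA was at 90.8% and 94.5% of control in the SIN3-labelled and double-labelled samples and was called in neither, so each direction given for these samples rests on their labels.

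Of the 10 genes, 3 of 9 tested were called in the SIN3-labelled samples, with Thor and JhI-21 higher and Sesn lower, while 7.68% of all 8123 tested rows of that table were called (3.34% higher, 4.35% lower). After SAM-S knockdown path was higher and Sesn lower among 10 tested, against 0.163% of 7957 rows (0.088% higher, 0.0754% lower). In the double-labelled samples Sesn alone was called of 9 tested, lower, against 9.62% of 8158 rows (3.48% higher, 6.14% lower). These shares are not read further, because the genes were picked with the calls in view. The median log2 fold change of the 10 genes' tested rows was 0.36, 0.11 and 0.27 in the 3 tables in the same order, and that of all tested rows was -0.01, -0.02 and -0.01.

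**Figure D1:**
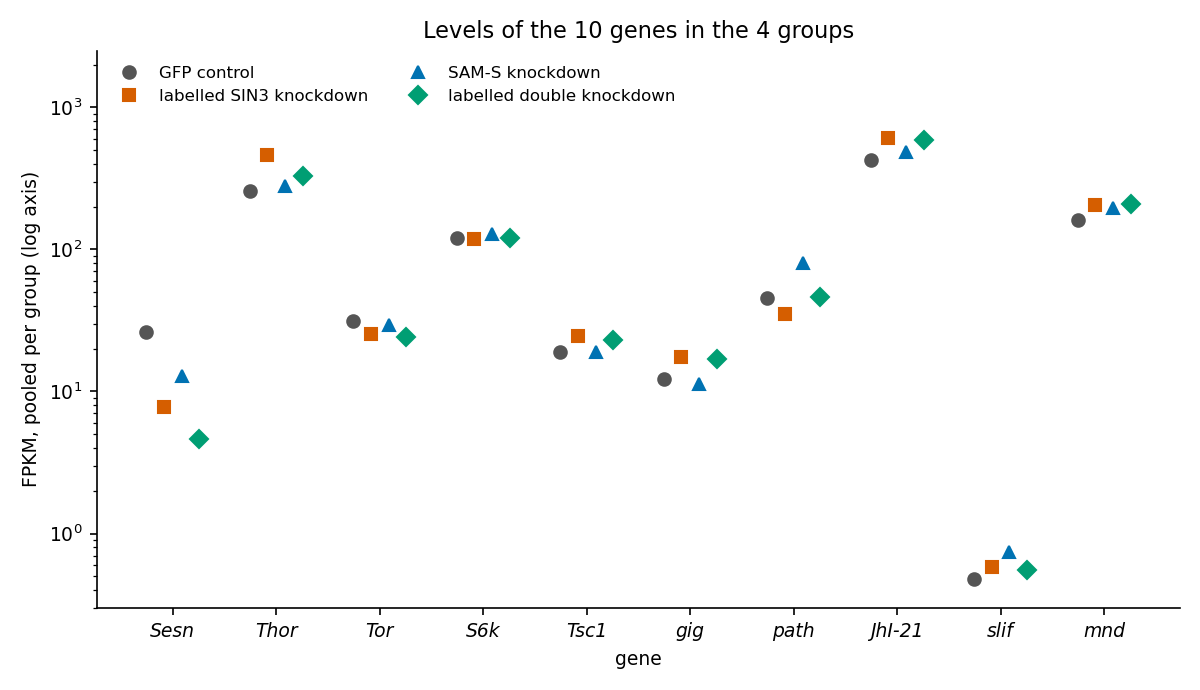
Level of each of the 10 genes in FPKM on a log axis, 1 pooled value per gene and group with no error, the tables put on the scale of the SIN3 table. Sesn lies below its control in each treated group, path is highest after SAM-S knockdown at 80.2 FPKM, and slif stays under 1 FPKM throughout.

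Sesn encodes the only fly sestrin, a stress-induced restraint on TORC1. The Sesn level was 26.1 FPKM in the GFP control, 7.78 FPKM in the SIN3-labelled samples, 12.9 FPKM after SAM-S knockdown and 4.62 FPKM in the double-labelled samples, all on the scale of the SIN3 table. Every treated group thus lay below the control, with a 5.65-fold range from highest to lowest. In the SIN3-labelled samples Sesn fell by 1.75 on the log2 scale (SE 0.39, interval -2.52 to -0.98), and the authors' deposited table gave it q = 0.00172. After SAM-S knockdown it fell by 1.02 (SE 0.34, interval -1.70 to -0.35), and the authors' deposited table gave it q = 0.0306. The double-labelled samples were lowest, where Sesn fell by 2.50 (SE 0.41, interval -3.30 to -1.70), and the authors' deposited table gave it q = 0.00157. Each of these q-values is the smallest that its table holds, because the smallest deposited p is 5e-05. The call after SAM-S knockdown was lost with a q under 0.01 and with a normal p from the statistic, and the other calls of Sesn were kept under both.

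Ranked by size, the fall of Sesn was the 41st of 353 in the SIN3-labelled samples, the 3rd of 6 after SAM-S knockdown and the 15th of 501 in the double-labelled samples. Ordered by level, only the SAM-S knockdown and the control were neighbours whose intervals did not overlap. The SIN3 interval overlapped that of the SAM-S knockdown and that of the double, and the double minus SIN3 difference of log2 fold changes was -0.75. The double minus SAM-S difference was -1.47, and those intervals did not overlap, though both end at -1.70 after rounding.

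The Sesn row spans chromosome 2R, 19601425 to 19620706, on build dm3, an interval that the tables also give to CG18128, which was at 0.0678 FPKM in the control. In the dm6 annotation, the gene CG46429 on the same strand shares 3097 of the 4760 exonic bases of Sesn, and reads of the pair cannot be told apart in such a table. The nearest expressed neighbour, egl, which encodes an adaptor for transported mRNAs, starts 1.72 kb away and had log2 fold changes of -0.11, -0.05 and -0.08 with no call. Genes of stress pathways linked to sestrin expression in flies or mammals were described as a list of 7 (p53, foxo, crc, Gcn2, PEK, bsk and puc), and none was called in any table. Over all tested rows 7.68%, 0.163% and 9.62% were called, so the absence of calls among so few genes is not read further. The median log2 fold changes of the list were -0.14, -0.04 and -0.03. The member furthest from 0 was p53, a stress-responsive transcription factor, at 12.2 and 7.48 FPKM (-0.70) in the SIN3-labelled samples, and the authors' deposited table gave it q = 0.157. The transcription factor crc, the fly counterpart of ATF4, had a log2 fold change of 0.10, 0.15 and 0.12.

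Thor encodes the fly 4E-BP, which blocks translation initiation until Tor phosphorylates it. Its level was 257 FPKM in the control, 460 FPKM in the SIN3-labelled samples, 281 FPKM after SAM-S knockdown and 327 FPKM in the double-labelled samples. The SIN3 group stood highest, and the control lowest. Thor rose 1.79-fold in the SIN3-labelled samples, a log2 fold change of 0.84 (SE 0.30, interval 0.25 to 1.43), and the authors' deposited table gave it q = 0.00172. After SAM-S knockdown the log2 fold change was 0.13 (interval -0.45 to 0.70). In the double-labelled samples it was 0.35 (interval -0.25 to 0.94), and the authors' deposited table gave it q = 0.242. The double minus SIN3 difference was -0.49, and their intervals overlapped. The call of Thor was lost with a normal p from the statistic. Thor lies at chromosome 2L, 3478434 to 3479612, and overlaps no other gene in the dm6 annotation.

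S6k, the ribosomal protein S6 kinase, differed least among the 10 genes, at 121 FPKM in the control, 118 FPKM in the SIN3-labelled samples, 129 FPKM after SAM-S knockdown and 121 FPKM in the double-labelled samples. Highest and lowest differed 1.09-fold, and each interval included 0, the widest reaching from -0.63 to 0.63. S6k lies at chromosome 3L, 5790649 to 5804031, an interval also given to CG42272, which was at 15.7 FPKM in the control. The 2 genes share no exonic bases in the dm6 annotation.

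Tor, the kinase itself, was at 31.5 FPKM in the control, 25.4 FPKM in the SIN3-labelled samples, 29.4 FPKM after SAM-S knockdown and 24.2 FPKM in the double-labelled samples. All treated groups were below the control, with log2 fold changes of -0.31, -0.10 and -0.38, intervals that include 0 and no call. The lowest q for Tor in the authors' deposited tables was 0.161, in the double. Tor lies at chromosome 2L, 13004480 to 13013197. Its neighbour Vha68-1, a proton pump subunit gene 0.372 kb away, fell in the SIN3-labelled and double-labelled samples and is described with its list.

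Tsc1 and gig encode the partners of the complex that inactivates Rheb. Tsc1 was at 19.1 FPKM in the control, 24.6 FPKM in the SIN3-labelled samples, 18.9 FPKM after SAM-S knockdown and 23.1 FPKM in the double-labelled samples. The level of gig was 12.2, 17.5, 11.4 and 16.9 FPKM in the same order. Both genes thus stood above the control in the SIN3-labelled and double-labelled samples and at or below it after SAM-S knockdown. None of these values was called. The log2 fold change of gig was 0.52 (interval -0.12 to 1.15) in the SIN3-labelled samples, and the authors' deposited table gave it q = 0.0657. It was 0.47 (interval -0.17 to 1.10) in the double-labelled samples, and the authors' deposited table gave it q = 0.0829. For Tsc1 the corresponding log2 fold changes were 0.36 and 0.27. Tsc1 lies at chromosome 3R, 19956032 to 19960376, and gig at chromosome 3L, 20122281 to 20132110. The gig interval is also given to CG7335 and obst-J, at 0.0277 and 0.0734 FPKM in the control. The next gene to gig, CG7328, 0.199 kb away, rose in the SIN3-labelled samples from 2.70 to 7.13 FPKM (1.40).

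**Figure D2:**
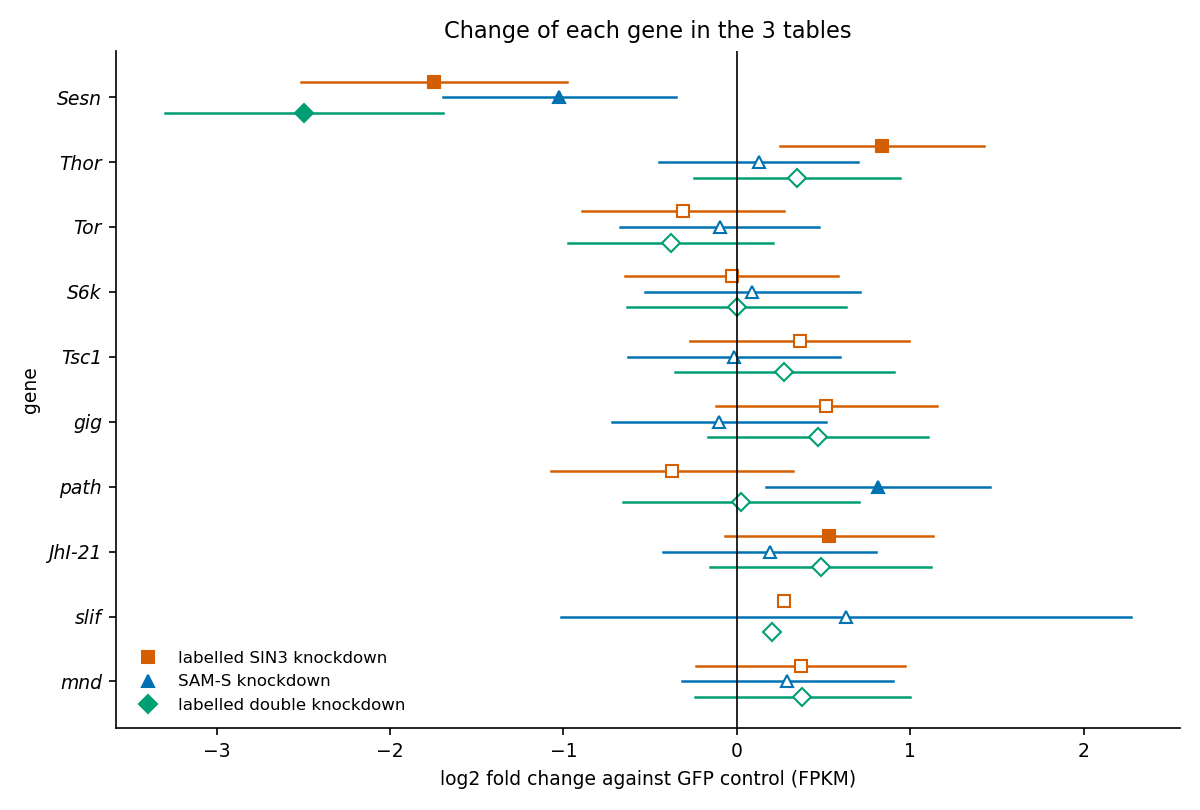
Log2 fold change of each gene against the GFP control in the 3 tables, with bars for the approximate 95% interval from the implied SE; filled symbols are called in the authors' deposited tables, open ones are not, and slif has no bar where it was not tested. Sesn lies left of 0 in all tables, at -1.75, -1.02 and -2.50, and path lies right of 0 after SAM-S knockdown, at 0.82.

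Among the transporters, path belongs to the SLC36 family of proton-assisted amino acid transporters and is known in the fly as a growth regulator. Its level was 45.6 FPKM in the control, 35.2 FPKM in the SIN3-labelled samples, 80.2 FPKM after SAM-S knockdown and 46.4 FPKM in the double-labelled samples. The SAM-S group was the highest and the SIN3 group the lowest, 2.28-fold apart, and the double was close to the control. After SAM-S knockdown path rose 1.76-fold, a log2 fold change of 0.82 (SE 0.33, interval 0.17 to 1.46), and the authors' deposited table gave it q = 0.0306. This rise was the 5th of 7 in that table by size, and its call was lost with a q under 0.01 and with a normal p from the statistic. In the SIN3-labelled samples the log2 fold change was -0.37 (interval -1.07 to 0.33), and in the double-labelled samples it was 0.03 (interval -0.66 to 0.71). The SIN3 minus SAM-S difference was -1.19. Of 6672 rows tested in all tables with at least 5 FPKM in some group, 106 had a difference at least as far in this direction. Treated neighbours in the order of levels had overlapping intervals, and the intervals of both neighbours of the control included 0. The path gene lies at chromosome 3L, 9487655 to 9498428.

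JhI-21 encodes a light chain of the SLC7 family that carries neutral amino acids such as leucine, and it was the most highly expressed of the 10 genes. Its level was 422 FPKM in the control, 609 FPKM in the SIN3-labelled samples, 482 FPKM after SAM-S knockdown and 591 FPKM in the double-labelled samples. The SIN3 and double groups were close to each other and above the control. JhI-21 rose 1.44-fold in the SIN3-labelled samples, a log2 fold change of 0.53, and the authors' deposited table gave it q = 0.0411. The interval from the implied SE, -0.07 to 1.13, includes 0, and the rise was the 264th of 271 by size. Its call was lost under the same settings as that of path. In the double-labelled samples the log2 fold change was 0.49 and not called, and the authors' deposited table gave it q = 0.0742. After SAM-S knockdown it was 0.19. The JhI-21 row, chromosome 2L, 12049423 to 12056042, shares its interval with CG14945, which was at 4.99 FPKM and overlaps 12.5% of the exonic bases of JhI-21 on the other strand in the dm6 annotation.

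The other leucine carrier of the SLC7 family among these genes, mnd, was at 160 FPKM in the control, 207 FPKM in the SIN3-labelled samples, 196 FPKM after SAM-S knockdown and 208 FPKM in the double-labelled samples. All treated groups stood above the control by similar amounts, with log2 fold changes of 0.37, 0.29 and 0.38, intervals that include 0 and no call. The cationic amino acid transporter slif, known for its role in the larval fat body, had little RNA in these cells, at 0.481 FPKM in the control, then 0.581, 0.746 and 0.554 FPKM in the treated groups in the same order. The authors tested slif only after SAM-S knockdown, where the interval of its log2 fold change of 0.63 ran from -1.01 to 2.28. The mnd gene lies at chromosome 3L, 14978200 to 14984767, and slif at chromosome 3L, 22874145 to 22886921.

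Of 9 other SLC7 and CD98 genes listed, 6 were tested, of which 2 were called in the SIN3-labelled samples and 3 in the double-labelled samples, against 7.68% and 9.62% of all tested rows. CG5535, of the cationic branch, rose from 241 to 347 FPKM (0.52) in the SIN3-labelled samples, where sbm, another SLC7 light chain, fell from 6.38 to 3.46 FPKM (-0.89). In the double-labelled samples gb, known for cystine and glutamate exchange, rose from 46.1 to 78.3 FPKM (0.77), while sbm (-1.17) and CG1607 (-0.83) fell. After SAM-S knockdown none of the 6 was called, against 0.163% of all tested rows. The list medians were 0.33, -0.08 and -0.07. CD98hc, the heavy chain that brings SLC7 light chains to the plasma membrane, stood at 355 FPKM in the control with log2 fold changes of 0.23, 0.05 and 0.11 and no call. Of 9 further SLC36 genes 7 were under 1 FPKM in both conditions of every table. None of the 3, 2 and 3 tested was called, too few to set against 7.68%, 0.163% and 9.62% of all tested rows. CG13384 was the SLC36 gene with most RNA, at 213 FPKM, above path, and its log2 fold changes were 0.00, 0.17 and 0.26. The list medians were 0.00, 0.09 and -0.40.

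Of 7 other transporter genes 4 were tested, with medians of -0.26, -0.14 and -0.36. Only Eaat1 and yin were called, both in the SIN3-labelled and double-labelled samples, where 7.68% and 9.62% of all tested rows were called. The glutamate transporter gene Eaat1 fell in the SIN3-labelled samples from 3.50 to 1.02 FPKM (-1.78) and in the double-labelled samples from 3.53 to 0.629 FPKM (-2.49). With 1 added to each FPKM these log2 fold changes were -1.16 and -1.48, and with a minimum of 1 FPKM in both conditions Eaat1 was left out of the double table's calls. After SAM-S knockdown it was at 1.73 against 3.51 FPKM, a log2 fold change of -1.02 that was not called, and the authors' deposited table gave it q = 0.701. The oligopeptide transporter gene yin fell from 46.6 to 23.1 FPKM (-1.01) in the SIN3-labelled samples and also in the double-labelled samples (-0.98), and had a log2 fold change of -0.27 after SAM-S knockdown.

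With both dsRNAs, a value equal to the sum of the single log2 fold changes would place a gene on the diagonal of the plot of the double knockdown against that sum. For Sesn the sum was -2.77 and the double -2.50, a departure of 0.27. Thor departed by -0.62, path by -0.42, mnd by -0.28 and JhI-21 by -0.23, each lying below its sum. Tor, gig, S6k and Tsc1 departed by 0.03, 0.05, -0.06 and -0.07. The value of slif, -0.70, comes from levels under 1 FPKM and is -0.26 with 1 added to each FPKM. In all, 3 of the 10 genes, Sesn, Tor and gig, lay above their sum. The departures were not tested.

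**Figure D3:**
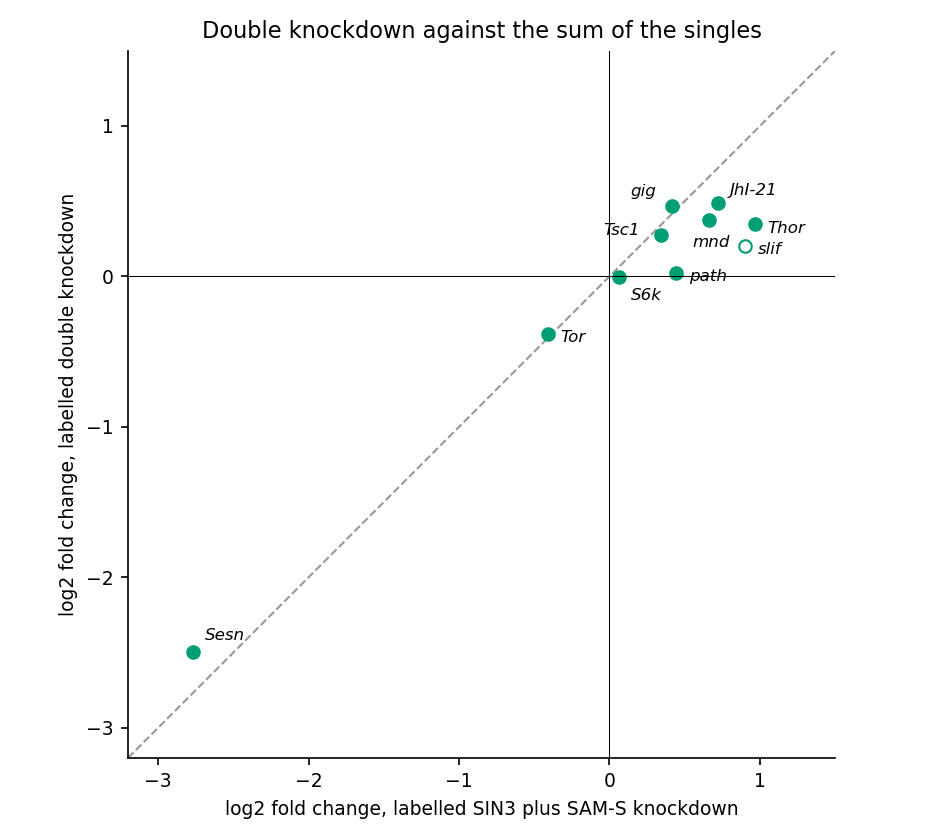
Log2 fold change in the double-labelled samples (vertical axis) against the sum of the log2 fold changes in the SIN3-labelled samples and after SAM-S knockdown (horizontal axis), 1 point per gene; the dashed line marks equality and slif, open, was not tested in every table. Sesn is near the line at -2.77 and -2.50, and Thor lies to the right of it, at 0.96 and 0.35.

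The rest of the pathway was described by 10 lists of 140 genes. In the SIN3-labelled samples 12 of 114 tested members were called, 7 higher and 5 lower, which is 10.5% against 7.68% of all tested rows, and their median log2 fold change was 0.10. After SAM-S knockdown none of 113 was called against 0.163% of all rows, with a median of -0.01 and, over that whole table, 223 rows whose unadjusted Cuffdiff p was under 0.05. In the double-labelled samples 12 of 113 were called, 6 in each direction, which is 10.6% against 9.62%, with a median of 0.07. The shares in the SIN3 and double tables thus lay near the background of the whole tables. With a normal p from the statistic, 0 calls were left in the SIN3 table and 1, Eaat1, in the double table.

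None of the 7 genes of the Tor complexes and Rheb was called in any table, where 7.68%, 0.163% and 9.62% of all tested rows were called. Their medians were -0.08, -0.06 and -0.19. The gene raptor encodes the subunit that presents substrates to Tor. Its row, merged with Mipp2, had log2 fold changes of -0.08, 0.01 and -0.06, and Rheb had 0.15, -0.02 and -0.02. Nor was any of 11 tested effectors called, a list that includes the translation initiation factor genes eIF-4E (-0.12, 0.01 and -0.14) and eIF4G (-0.08, 0.06 and -0.01). The effector medians were -0.08, 0.08 and -0.01. With lists this small, the absence of calls is near the shares of all tested rows and is not read further.

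Amino acid sensing was represented by 18 genes. In the SIN3-labelled samples mio, a subunit of the GATOR2 complex that sestrins bind, rose from 21.1 to 37.2 FPKM (0.82), and the authors' deposited table gave it q = 0.00172. RagC, a Rag GTPase, rose from 51.0 to 74.6 FPKM (0.55), and the authors' deposited table gave it q = 0.0494. The mio level also rose in the double-labelled samples, from 21.3 to 32.7 FPKM (0.61), while RagC, at 0.41, was not called. The other 16 and 17 genes of the list were not called in these tables, where 7.68% and 9.62% of all tested rows were called. After SAM-S knockdown none of the 18 was called, against 0.163% of all tested rows. The list medians were 0.14, -0.01 and 0.11. Samtor, whose human counterpart binds S-adenosylmethionine, was at 18.3 FPKM in the control with log2 fold changes of 0.09, 0.37 and 0.29, and unmet, also a sensor of that metabolite, was at 35.9 FPKM with -0.15, 0.06 and -0.13. Neither was called. Of 15 insulin and energy sensing genes, Pdk1, a kinase that activates Akt and S6k, fell from 52.1 to 35.7 FPKM (-0.54) in the SIN3-labelled samples. No other call was made for those 15 in any table, against 7.68%, 0.163% and 9.62% of all tested rows. With so few genes, the counts of both lists are not read further. The medians of the insulin and energy list were 0.08, -0.03 and 0.04.

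Autophagy, which TORC1 restrains, had 23 tested genes of 24. In the SIN3-labelled samples 4 rose, against 3.34% of all tested rows, and 19 were not called. There, 22 of the 23 values were above 0 against 48.3% of all tested rows, and the median was 0.26. In the same samples 17 of 21 proton pump, 13 of 18 amino acid sensing and 2 of 11 effector values were above 0. The row of Pi3K59F, the gene of the lipid kinase Vps34, is merged with CG30184 and rose from 16.4 to 30.0 FPKM (0.87), and ird1, its partner kinase Vps15, from 12.9 to 20.1 FPKM (0.64). Atg9, a membrane protein of the forming autophagosome, rose from 28.3 to 47.1 FPKM (0.74) and ref(2)P, the fly p62 cargo adaptor, from 76.2 to 125 FPKM (0.72). Of the same genes, 3 rose in the double-labelled samples, against 3.48% of all tested rows: Pi3K59F (0.77), Atg9 (0.53) and ref(2)P (0.52). The authors' deposited table gave Atg9 q = 0.0462 and ref(2)P q = 0.0485, and both calls were lost with a q under 0.01. Above 0 in the double-labelled samples were 15 of 20 proton pump, 12 of 18 amino acid sensing and 5 of 11 effector values. Of the autophagy values 18 were above 0 there, against 48.3% of all tested rows, with a median of 0.29. The log2 fold change of ird1 was 0.49 and not called. After SAM-S knockdown none was called, against 0.163% of all tested rows. There, 8 of 23 values were above 0 against 45.2% of all tested rows, and the median was -0.04. Atg6 and Uvrag, whose proteins join the Vps34 complex, had log2 fold changes of 0.51 and 0.49 in the SIN3-labelled samples and were not called.

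The vacuolar proton pump (V-ATPase), which acidifies the lysosome and takes part in amino acid sensing, had 21, 21 and 20 tested genes. Of these, 1 was called lower in the SIN3-labelled samples and none after SAM-S knockdown. In the double-labelled samples 1 was called higher and 2 lower. Over all tested rows 7.68%, 0.163% and 9.62% were called, and with so few genes these counts are not read further. Vha68-1, a catalytic subunit gene and the neighbour of Tor, fell from 12.2 to 7.08 FPKM (-0.79) in the SIN3-labelled samples and also in the double-labelled samples (-0.77). In the latter Vha13 rose from 201 to 323 FPKM (0.69), and Vha100-5, a membrane subunit gene near 1 FPKM, fell from 1.01 to 0.308 FPKM (-1.71, or -0.62 with 1 added to each FPKM) and was likewise left out with that minimum. The list medians were 0.12, 0.01 and 0.09.

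**Figure D4:**
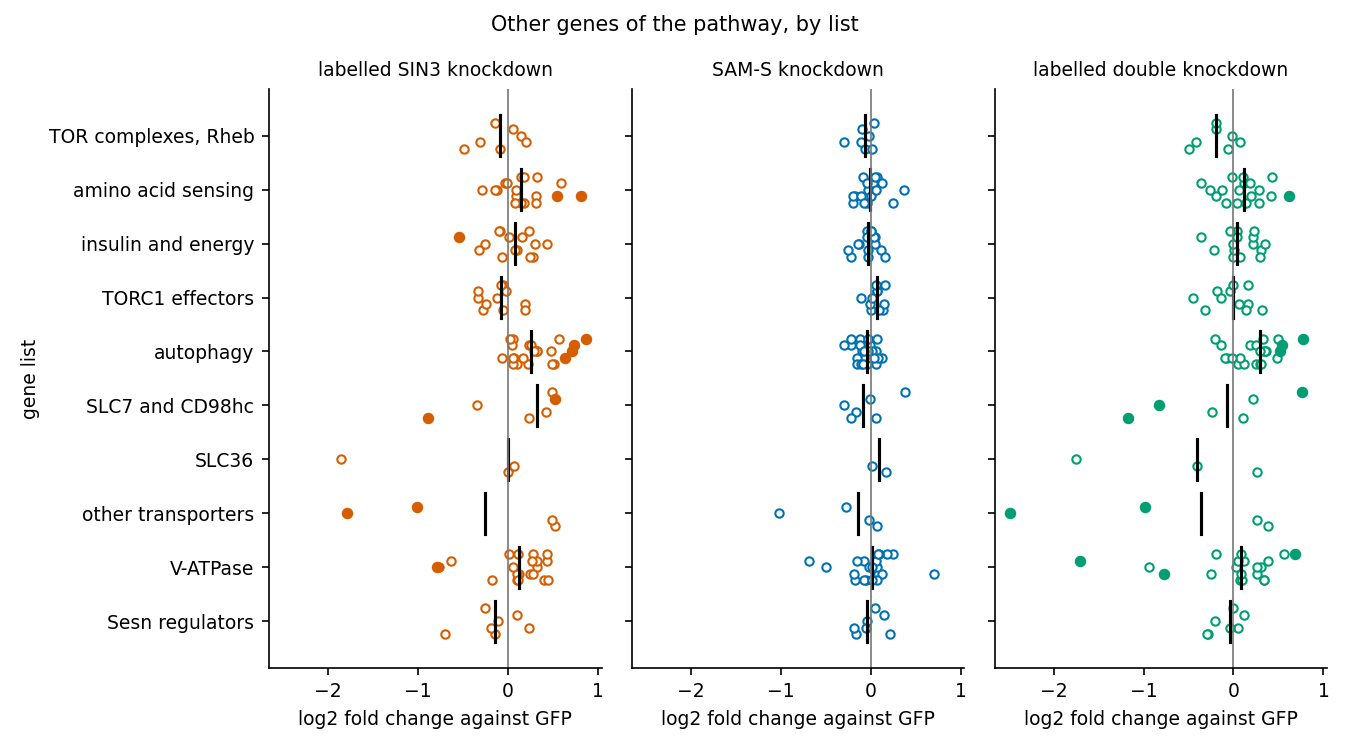
Log2 fold change against the GFP control of the tested genes of each pathway list, 1 point per gene row and 1 panel per table; filled points are called in the authors' deposited tables, and black bars mark list medians. Autophagy, amino acid sensing and the V-ATPase each have most of their points right of 0 in the SIN3-labelled samples, with medians of 0.26, 0.14 and 0.12. The effectors have most of theirs left of 0, with a median of -0.08. No point is filled after SAM-S knockdown.

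Rows most like Sesn, Thor and path were named by the smallest distance between their 3 log2 fold changes and those of the gene, among 6671 other rows tested in every table with at least 5 FPKM in some group. The tables share a control, so nearness over these values says nothing of shared function or control. Nearest to Sesn was yellow-h, of the yellow protein family, at a distance of 0.22, with log2 fold changes of -1.84, -0.88 and -2.35. CG5397 followed at 0.46, the small heat shock protein gene Hsp23 at 0.48, CG5973 at 0.53 and CG14864 at 0.58. Of these rows only Hsp23 was called in every table, like Sesn. Both yellow-h and CG5397 were called in the SIN3-labelled and double-labelled samples, CG5973 in the double-labelled samples alone and CG14864 in none. Without the FPKM minimum, which was dropped after seeing the data, the nearest of 7809 rows was the glutamate transporter gene Eaat1, at 0.04. Eaat1 had only 3.50 FPKM in the control and was not called after SAM-S knockdown. With 1 added to each FPKM its log2 fold changes were -1.16, -0.73 and -1.48, against -1.63, -0.97 and -2.27 for Sesn, so that nearness depends on using no pseudocount.

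Nearest to Thor were CG34234, CG13827 and CG18764, at 0.07, 0.08 and 0.11, each between 4.36 and 5.82 FPKM in the control and called in no table. Nearest to path were wde, which encodes a cofactor of a histone H3 lysine methyltransferase, at 0.34, CG10764 at 0.35 and the collagen gene Cg25C at 0.37. Cg25C stood at 167 FPKM in the control and had log2 fold changes of -0.49, 0.65 and 0.33, and none of these rows was called.

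**Figure D5:**
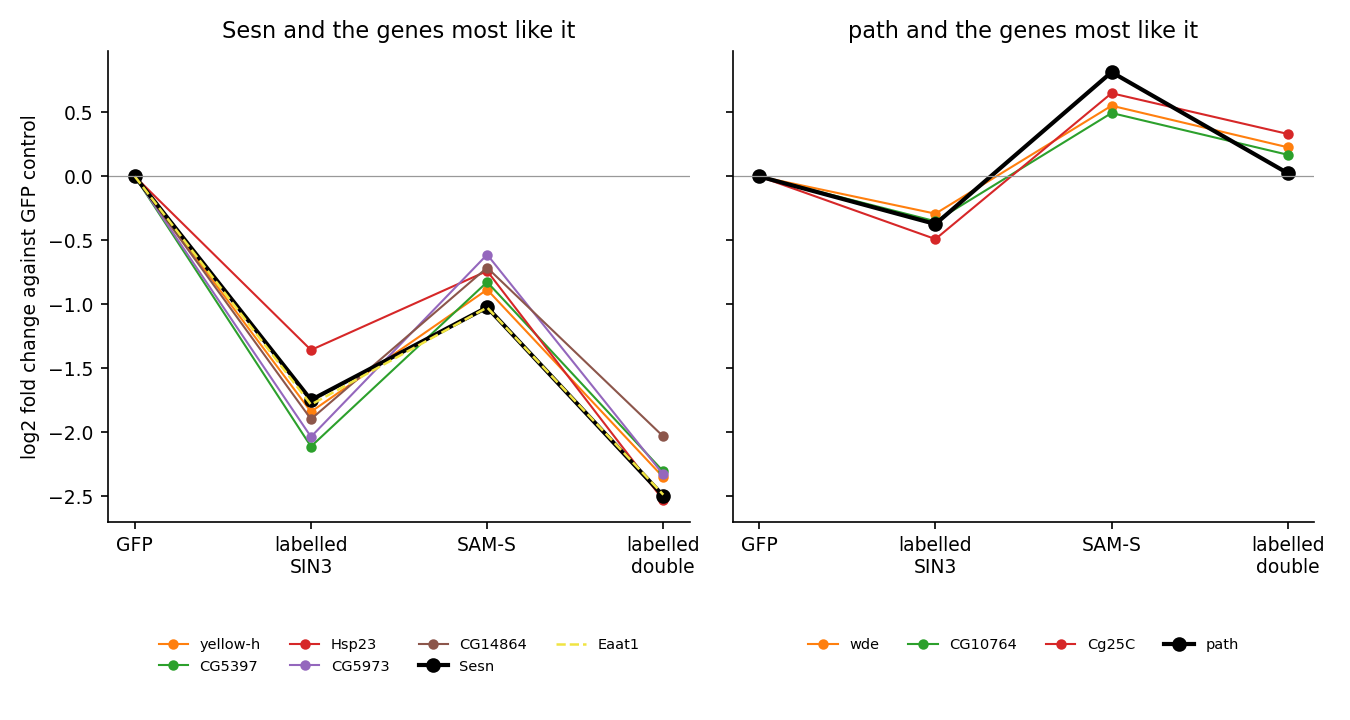
Log2 fold change against the GFP control in each treated group for Sesn (left) and path (right), in black, and for the rows nearest to each in colour; lines join the values of 1 gene and groups have no order. The dashed line of Eaat1, at 3.50 FPKM in the control, lies on that of Sesn at a distance of 0.04 with no pseudocount. Among rows with at least 5 FPKM in some group the nearest to path is at 0.34. The search without that minimum, which gave Eaat1, was run for Sesn only.

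Markers of blood cells and of other tissues were read in the same samples, from the unscaled values of each table, with the control of the SIN3 table. All 13 hemocyte and S2 markers had values above 0, and their summed level was 27605 FPKM in the control, 12414 FPKM in the SIN3-labelled samples, 24869 FPKM after SAM-S knockdown and 12205 FPKM in the double-labelled samples, most of it Nplp2 in each group. Of the 13, 6 fell in the SIN3-labelled samples, 5 in the double-labelled samples and none after SAM-S knockdown, against 4.35%, 6.14% and 0.0754% of all tested rows called lower. The marker sum was thus low in the groups where Sesn was lowest and the autophagy medians highest. After SAM-S knockdown, where Sesn also fell, the sum was 24869 FPKM against 27605 FPKM in the control. Any part of the markers in the Sesn or autophagy results was not tested. In bulk RNA, fewer cells of a type and less RNA per cell cannot be told apart. The 5 muscle, 5 germline and 4 fat body markers were under 1 FPKM in every group, as were 4 of 5 neuron markers. The fifth, elav, was at 3.22 FPKM in the control, 4.98 FPKM in the SIN3-labelled samples, 3.15 FPKM after SAM-S knockdown and 4.33 FPKM in the double-labelled samples.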

How the data were processed

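Per the submitters' processing notes, bcl2fastq and Cuffdiff were used on build dm3; the aligner, annotation and versions were not given in the sources used here, nor was a strand setting. Each of the 3 deposited tables holds, per the file headers, an FPKM per gene for the GFP control and for the knockdown, the score of its test (the statistic), a p-value and a q-value. Per the labels, the 3 replicates of a group were combined, so the tables hold no values per sample. Read counts are not analysed here, the depth is unknown and no counting interval is given.

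Log2 fold changes were computed from the FPKM with no pseudocount, and the implied SE is their absolute value over the statistic. For levels, the SAM-S and double tables were divided by the median ratio of their GFP values to those of the SIN3 table over 7655 rows, 1.005 and 1.011; of these rows, 24 and 21 were off by over 1%. Fold changes use each table's own values. The deposited q is over all tested rows of a table; in the SIN3 table it differs from a Benjamini-Hochberg adjustment by up to 0.0427. Python 3.11.15, pandas 2.3.3, numpy 2.4.6 and scipy 1.17.1 were used, and the arithmetic was tested on simulated data. The simulated noise was drawn from the implied SE itself, so it cannot show whether that SE is right for these data.

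The 10 genes, the gene lists and the naming rule were chosen with earlier results of these data known. The rule named all 10 genes, Sam-S and Sin3A, up to 4 called genes per list with the largest log2 fold changes, Samtor, unmet, raptor, Rheb and CD98hc, and the 5, 3 and 3 rows most like Sesn, Thor and path. Other genes (egl, CG18128, CG46429, CG14945, CG42272, CG7335, obst-J, CG7328, p53, crc, eIF-4E, eIF4G, Atg6, Uvrag, CG13384 and, of the markers, Hml, Nplp2 and elav) were named after their values were seen. Coordinates are those of the tables with 1 added to each start; the interval given is shared by all rows of overlapping genes. Gene overlaps come from the dm6 annotation, and no dm6 coordinates are printed. Alternatives were a q under 0.01, recomputed adjustment, a normal p from the statistic, an FPKM minimum of 1, merged rows left out, a pseudocount of 1, centring and a common control value.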

Additional observations from a re-analysis of the deposited data

How the results depend on the processing

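No paired analysis was possible because the tables hold 1 pooled value per group, and leaving out single replicates was not possible for the same reason. Of the summary values under the alternatives, 38 stayed close to the reported ones (counts within 1.5 times) and 13 moved, and no called value reversed its direction. With a q under 0.01 in the authors' deposited tables, 327 rows were called in the SIN3 table (624 at 0.05), 0 in that of SAM-S (13) and 387 in the double table (785), so that both SAM-S calls among the 10 genes were lost (0), and 6 and 7 list genes were called in the SIN3 and double tables (12 each). With a normal p from the statistic, 37 and 55 rows were called in the SIN3 and double tables, 1 of the 10 genes in the SIN3 table and 0 of them in that of SAM-S, and 0 and 1 list genes; the share of higher calls over all rows moved from 43.4% to 18.9% in the SIN3 table and from 36.2% to 14.5% in the double table. Why the statistic and the deposited p differ in scale was not tested. With SEs divided by the root of 3, 13 intervals of the 10 genes did not include 0, against 5. With a pseudocount of 1, the log2 fold changes of slif went from 0.27 to 0.09 in the SIN3-labelled samples and from 0.20 to 0.07 in the double-labelled samples. Unknown depth and pooling limit every value, and low rows such as slif most.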

Other observations

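Some genes next to the transporters and regulators changed in the same tables, and all were named after their values were seen. CG32037, 2.34 kb from path, fell from 5.86 to 2.62 FPKM in the SIN3-labelled samples, a log2 fold change of -1.16, and had -0.37 after SAM-S knockdown and -1.23 in the double-labelled samples. The gene rab3-GAP, 2.26 kb from JhI-21, rose from 13.2 to 22.8 FPKM (0.79) in the SIN3-labelled samples. On the other side of JhI-21, the row of CG34164 and RpL7-like, 0.281 kb away, stood at 219 FPKM in both conditions of that table and was not called.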
